A study of Caenorhabditis elegans with 12 samples.

Results

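Expression of 7 genes for the first steps of branched-chain amino acid breakdown was measured in whole hermaphrodites of the nematode Caenorhabditis elegans. The genes are bcat-1, bckd-1A, bckd-1B, dbt-1, dld-1, ivd-1 and mccc-1. They were taken by name from the WormBase symbols of the enzymes and found by gene ID, 7 of the 46748 IDs in the count table. All 7 passed the filter on low counts. RNA was sequenced from 12 libraries of animals labelled as 5 days old, 3 libraries in each of 4 groups. The first strain, CF1038, carries daf-16(mu86), a mutation of daf-16, whose product is the FOXO factor that insulin signalling keeps in check. It was fed bacteria with the empty RNAi vector L4440 or with an RNAi clone against bcat-1. The second strain, TU3311, carries a sid-1 transgene for RNAi in neurons and was fed L4440 or an RNAi clone against daf-7, which encodes a TGF-beta ligand. SID-1 is a channel that lets double-stranded RNA into cells. Both daf-16(mu86) groups carry the mutation and both TU3311 groups carry the transgene, and no group of wild-type animals was analysed here. The labels do not name the promoter of the transgene. They also do not say that the libraries within a group are separate cultures, so the p-values rest on a spread between libraries that may be technical only.

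Leucine, isoleucine and valine are broken down in mitochondria along a shared route. The branched-chain aminotransferase BCAT-1 moves the amino group to 2-oxoglutarate in a reversible step, which leaves a branched-chain ketoacid. The branched-chain ketoacid dehydrogenase complex then removes carbon dioxide and joins the remaining acyl group to coenzyme A, and this step cannot be reversed. In C. elegans this breakdown also supplies starting units of monomethyl branched-chain fatty acids, which the animals need for growth.

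The genes fall into 4 roles and lie on 5 chromosomes, in WBcel235 coordinates. The aminotransferase gene bcat-1 (WBGene00001149) lies on the plus strand of X:12877480-12880328, with 6 exons in 1 transcript. The ketoacid dehydrogenase subunits are encoded by bckd-1A (WBGene00012713, E1 alpha, III:12967898-12972498, minus strand), bckd-1B (WBGene00006518, E1 beta, I:7727257-7729092, plus strand) and dbt-1 (WBGene00014054, the E2 acyltransferase, II:7942602-7945206, minus strand). The E3 subunit, dihydrolipoamide dehydrogenase, is encoded by dld-1 (WBGene00010794, IV:14464517-14469136, plus strand) and serves other dehydrogenase complexes as well. Of the leucine branch, ivd-1 (WBGene00015326, IV:5086856-5088864, minus strand) encodes isovaleryl-CoA dehydrogenase and mccc-1 (WBGene00009319, IV:9884570-9887151, plus strand) encodes a subunit of 3-methylcrotonyl-CoA carboxylase. The strand setting of the counting is not given in the sources used here. The exons of ivd-1 overlap those of pygo-1 on the opposite strand over 52 bases, which is 3.57% of its exon length, and no other gene shared as much as 1% of its exon bases with a neighbour.

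The 12 libraries held between 30130249 and 45343624 counts. The 7 genes had between 3043 and 10768 counts in each library, so counting error was at most 1.81% of a value and was small beside the spread between libraries. Levels are given as CPM (counts scaled to the library total) scaled by TMM factors. The libraries are named by the numbers in their labels: 1, 3 and 5 are daf-16(mu86) on vector, 2, 4 and 6 are daf-16(mu86) on bcat-1 RNAi, 7, 9 and 11 are TU3311 on vector, and 8, 10 and 12 are TU3311 on daf-7 RNAi. Libraries 7 and 8 stood apart from the other TU3311 libraries in several of the genes below, and in the summed level of 7 germline and oocyte markers, so the comparisons that use them are also given without them. In whole animals fewer cells of a type and less RNA per cell cannot be told apart.

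**Figure D1:**
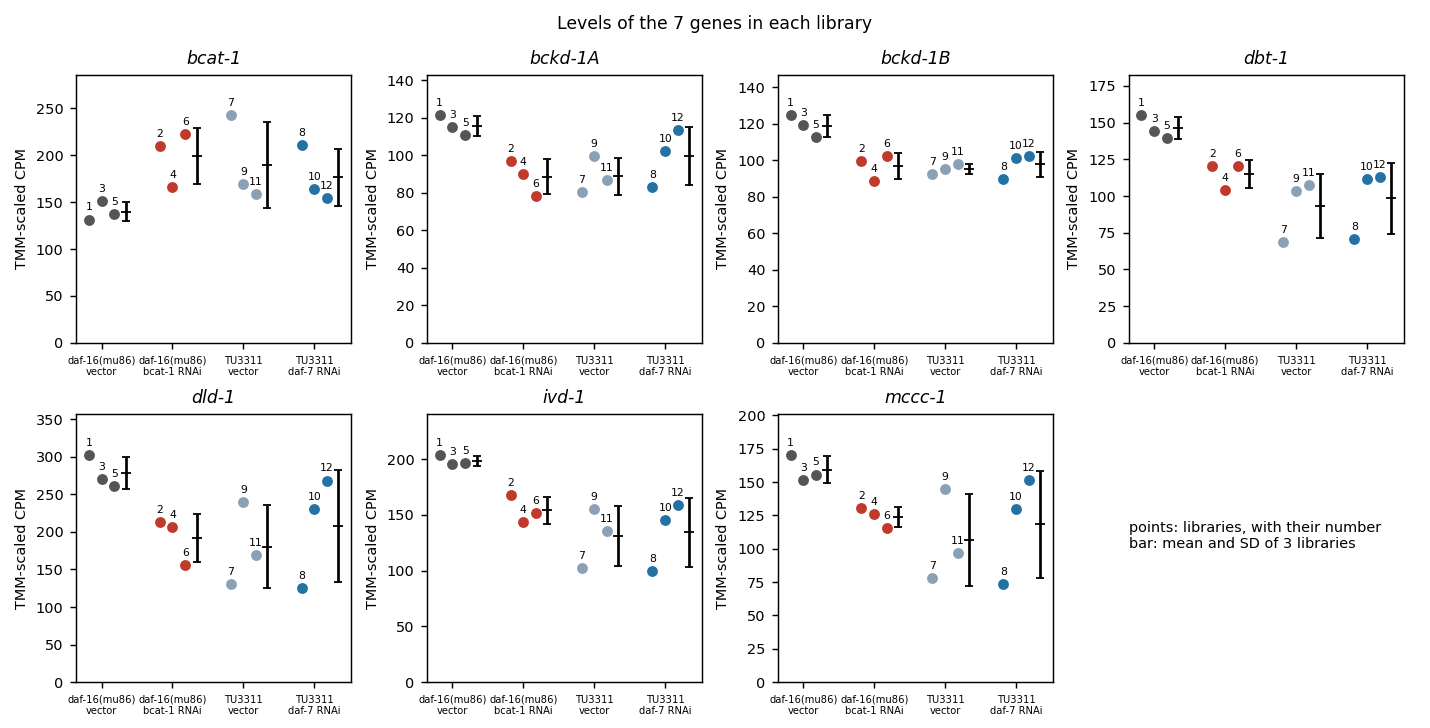
Level of each of the 7 genes (TMM-scaled CPM, linear axes from 0) in each of the 12 libraries, by group, with the library number at each point and the mean and SD of 3 libraries beside the points. In daf-16(mu86) the bcat-1 points lie higher on bcat-1 RNAi than on vector, and the points of the other 6 genes lie lower.

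Levels were first compared between the genes per kilobase of merged exons, as a description. In daf-16(mu86) on vector, dld-1 was highest at 152 ± 11.9 CPM per kb (SD, n = 3), followed by ivd-1 at 136 ± 3.18. The next genes in order were dbt-1 (88.5 ± 4.69), bckd-1B (85.2 ± 4.32), bcat-1 (75.8 ± 5.53), mccc-1 (72.3 ± 4.52) and bckd-1A (67.1 ± 3.02 CPM per kb). Neighbours in this order overlapped between libraries, except dld-1 with ivd-1 and ivd-1 with dbt-1. On bcat-1 RNAi, bcat-1 (108 ± 16.03), ivd-1 (106 ± 8.40) and dld-1 (105 ± 17.2 CPM per kb) overlapped at the top of the order, and bckd-1A was again lowest at 51.4 ± 5.37. In TU3311 on vector, bcat-1 was at 103 ± 24.8, dld-1 at 98.7 ± 30.2 and ivd-1 at 89.6 ± 18.4 CPM per kb, and these 3 overlapped as well. The lowest gene there was mccc-1 at 48.4 ± 15.6 CPM per kb. In TU3311 on daf-7 RNAi all neighbours overlapped, from dld-1 at 114 ± 40.6 to mccc-1 at 53.7 ± 18.2 CPM per kb. The E1 subunits, which form 1 enzyme, stood at 67.1 for bckd-1A and 85.2 CPM per kb for bckd-1B in the daf-16(mu86) vector libraries.

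The first comparison asks how daf-16(mu86) animals fed the bcat-1 clone differed from those on vector, and bcat-1 itself is the targeted gene. Its level was 131, 151 and 137 CPM in vector libraries 1, 3 and 5. On bcat-1 RNAi it was 209.7, 166 and 222 CPM in libraries 2, 4 and 6. All 3 RNAi libraries were thus above all 3 vector libraries, the opposite of a fall in the targeted transcript. The group means were 139.9 ± 10.2 and 199 ± 29.6 CPM (SD, n = 3). The log2 change was 0.51 ± 0.23 (SE), which is 1.42-fold, and it missed the threshold with an adjusted p of 0.212 in edgeR's quasi-likelihood test over 16618 genes. A count per gene does not say which part of bcat-1 the reads came from, and whether it includes reads of the RNAi clone was not tested. This limit holds for every change, ratio and difference between responses of bcat-1 given here, and for the count of daf-7 under its own clone.

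The E1 genes lay lower on bcat-1 RNAi. For bckd-1A, the vector libraries held 121, 114.9 and 111 CPM and the RNAi libraries 96.9, 90.3 and 78.6 CPM. For bckd-1B, the values were 124, 119.02 and 112 CPM on vector against 99.5, 88.8 and 102 CPM on RNAi. In both genes the lowest vector library was above the highest RNAi library. The log2 changes were -0.39 ± 0.20 (adjusted p = 0.267) for bckd-1A and -0.29 ± 0.18 (adjusted p = 0.339) for bckd-1B, by the same edgeR test.

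The acyltransferase and lipoamide dehydrogenase genes lay lower too. For dbt-1, the values were 155, 145 and 139.6 CPM on vector against 120.3, 104.3 and 120.5 CPM on RNAi. For dld-1 they were 303, 270.2 and 262 CPM on vector against 213, 207 and 156 CPM on RNAi. Neither gene's groups overlapped. The edgeR log2 changes were -0.35 ± 0.24 (adjusted p = 0.391) for dbt-1 and -0.53 ± 0.29 (adjusted p = 0.298) for dld-1.

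The leucine-branch genes lay on the same side. For ivd-1, the vector libraries held 204, 195 and 196 CPM and the RNAi libraries 167, 143 and 152 CPM. For mccc-1, the values were 170.4, 152 and 156 CPM on vector against 130.4, 126 and 116 CPM on RNAi. The groups did not overlap for either gene, and the vector values of ivd-1 were the tightest among the 7 genes relative to their mean (198 ± 4.63 CPM). The edgeR log2 changes were -0.37 ± 0.23 (adjusted p = 0.351) for ivd-1 and -0.36 ± 0.28 (adjusted p = 0.441) for mccc-1.

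**Figure D2:**
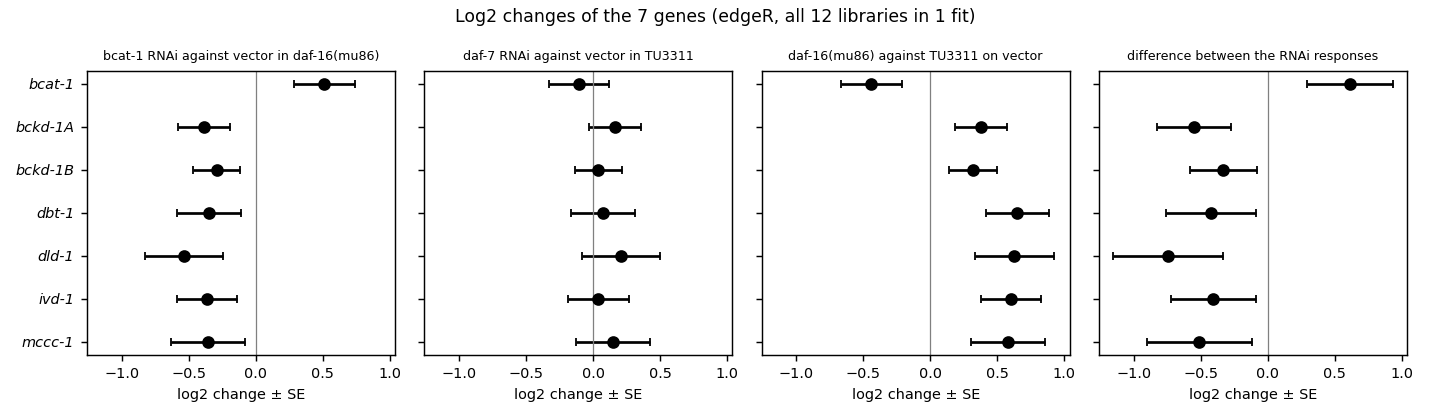
Log2 change of each of the 7 genes in the 4 comparisons, from 1 edgeR fit of all 12 libraries; bars are standard errors. With bcat-1 RNAi the point of bcat-1 is at 0.51 and those of the other genes lie between -0.53 and -0.29, and none of the 28 values passed an adjusted p of 0.05.

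In this fit, 0 of the 7 genes passed the threshold, against 4.32% of all genes tested. The unadjusted edgeR p of bcat-1 was 0.0409, and those of the other 6 genes were above 0.05. Many genes had a smaller p than bcat-1, which ranked only 3209 by p among the 16618 genes tested. DESeq2 called none of the 7 either. The groups did not overlap for any of the 7 genes, with bcat-1 higher and the other 6 lower, but this was common: 29.5% of all genes were higher and 25.1% lower without overlap. The median log2 change was -0.36 over the 7 genes and 0.16 over all genes tested. The signs were the same in each of 22 other settings, while non-overlap depended on scaling, with 6 genes lower and none higher under DESeq2-type factors (RLE) and 1 gene higher and 5 lower with library totals.

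Taking neighbouring library numbers as blocks, a pairing that the labels do not state, moved 6 of the 7 genes past the threshold. The bcat-1 log2 change was then 0.50 with an edgeR adjusted p of 0.00785, and 25.7% of all genes rose in that fit. The 5 genes that fell were bckd-1A (-0.39, adjusted p = 0.0116), bckd-1B (-0.29, adjusted p = 0.0259), dbt-1 (-0.35, adjusted p = 0.0107), dld-1 (-0.55, adjusted p = 0.0127) and ivd-1 (-0.37, adjusted p = 0.0113), against 18.5% of all genes. mccc-1 missed it with an adjusted p of 0.0580. A fit of only the 6 daf-16(mu86) libraries also called 6 genes, with 1 higher against 24.0% of all genes and 5 lower against 16.5%. There bckd-1B missed (adjusted p = 0.0537) and mccc-1 passed (adjusted p = 0.0199). Leaving libraries 7 and 8 out of the fit of all groups gave 6 calls as well, against 35.7% of all genes, although neither library belongs to this comparison.

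Within neighbouring pairs, the log2 difference of bcat-1 between RNAi and vector was 0.67, 0.13 and 0.70. Pair 3 and 4 thus had the smallest difference. The 6 other genes were lower in the RNAi library of every pair, from -0.13 for bckd-1B in the pair of libraries 5 and 6 to -0.75 for dld-1 in the same pair.

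Markers of cell types moved beside these values. The summed level of the 7 germline and oocyte markers was 5781 to 6998 CPM on vector and 3433 to 4351 CPM on bcat-1 RNAi. Their log2 changes in the fit without the block ran from -0.43 for glh-1 to -0.94 for chs-1. With the block 7 of 7 were lower and passed, against 18.5% of all genes. The summed level of 6 neuron markers was 322 to 343 CPM on vector and 363 to 372 CPM on RNAi. Muscle markers (520 to 622 CPM against 403 to 749 CPM) and intestine markers (24334 to 28593 CPM against 25597 to 32799 CPM) overlapped between the groups. In every group vit-2 and vit-6 made up most of the intestine sum. The highest group mean of any other intestine marker was 1044 CPM (cpr-6, TU3311 on daf-7 RNAi). The sums of epidermis markers (26.0 to 43.3 CPM against 29.7 to 92.1 CPM) and embryo markers (268 to 307 CPM against 238 to 270 CPM) overlapped as well. Within the epidermis list the log2 change was -0.10 for col-19, and positive for dpy-7 (1.32), rol-6 (2.14), sqt-1 (1.99) and bli-1 (2.55). The dpy-7 groups did not overlap (3.09 to 9.10 CPM against 11.6 to 16.5 CPM), while those of bli-1 did (0.231 to 1.22 CPM against 0.150 to 10.4 CPM). Sperm markers summed to 0.615 to 2.75 CPM on vector, with up to 2 of the 6 at 0 in a library, and to 0.253 to 8.46 CPM on RNAi. The part of these markers in the enzyme values was not tested.

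Ratios of counts within a library do not depend on how libraries are scaled. The ratio of bcat-1 to bckd-1A was 1.08, 1.32 and 1.23 on vector and 2.16, 1.84 and 2.83 on bcat-1 RNAi. No RNAi library came as low as the highest vector library. The log2 difference was 0.89 ± 0.20 (SE), with a two-sided exact permutation p of 0.1, the smallest that 3 against 3 libraries allow, and an adjusted p of 0.3 over 9 such tests. The ratio of bckd-1B to bckd-1A lay between 0.898 and 1.304 over all 12 libraries. Its groups overlapped in this comparison (log2 difference 0.096 ± 0.13, exact p = 0.8), as did those of the ratio of dbt-1 to bckd-1A (0.041 ± 0.12, exact p = 1). The geometric mean ratio of bckd-1B to bckd-1A was 1.025 on vector and 1.096 on RNAi, where that of bcat-1 to bckd-1A was 1.21 and 2.24.

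**Figure D3:**
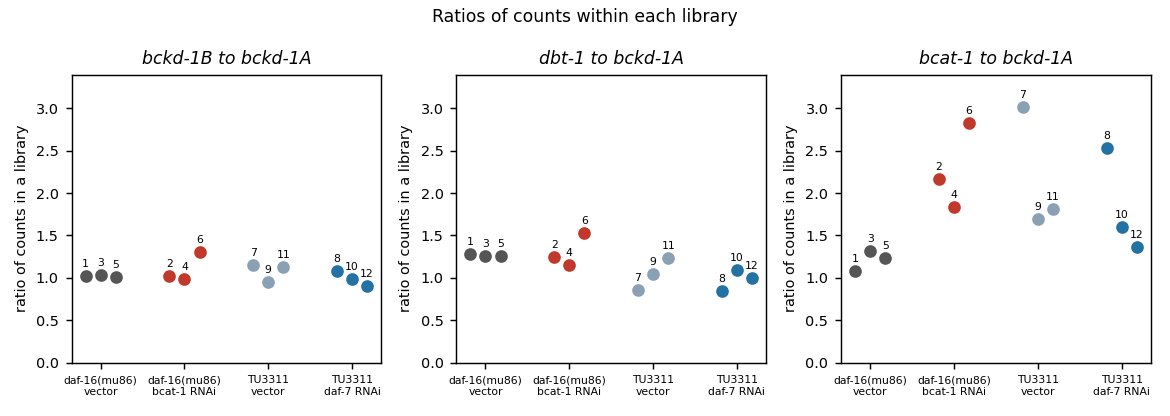
Ratios of counts of bckd-1B, dbt-1 and bcat-1 to bckd-1A in each of the 12 libraries (linear axes from 0), with the library numbers. The ratio of bcat-1 to bckd-1A is at most 1.32 in libraries 1, 3 and 5 and at least 1.84 in libraries 2, 4 and 6, while the ratio of bckd-1B stays between 0.898 and 1.304.

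The second comparison asks how daf-7 RNAi changed the same genes in TU3311, whose neurons take up the double-stranded RNA. None of the 7 genes differed beyond the spread between libraries. The targeted gene, daf-7, had 537, 335 and 267 counts in vector libraries 7, 9 and 11 and 5063, 1182 and 4269 counts in RNAi libraries 8, 10 and 12, so its count was also higher under its own RNAi label. bcat-1 stood at 242, 169 and 158 CPM in vector libraries 7, 9 and 11. On daf-7 RNAi it stood at 211, 164 and 155 CPM in libraries 8, 10 and 12. In each group the first-numbered library, 7 or 8, was the highest.

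For the ketoacid dehydrogenase genes, bckd-1A held 80.3, 99.7 and 87.0 CPM on vector and 83.2, 102 and 114 CPM on daf-7 RNAi. bckd-1B held 92.5, 95.0 and 97.9 CPM against 89.9, 101 and 102 CPM. The levels of bckd-1B were thus within a narrow span in this strain, and its fold between the highest and lowest of all 12 libraries, 1.402, was the smallest among the 7 genes.

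dbt-1 held 68.4, 103.7 and 108 CPM on vector and 70.4, 111 and 113 CPM on daf-7 RNAi. dld-1 held 131, 239.8 and 169 CPM against 125, 229.8 and 268 CPM. Libraries 7 and 8 were lowest for both genes, and dld-1 had the widest span of the 7 genes, 2.42-fold over all 12 libraries.

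ivd-1 held 102, 155 and 135 CPM on vector and 99.2, 145 and 159 CPM on daf-7 RNAi. mccc-1 held 78.0, 145 and 97.0 CPM against 73.7, 129.6 and 151 CPM. Here too libraries 7 and 8 were the lowest.

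The edgeR log2 changes lay between -0.10 ± 0.23 for bcat-1 and 0.21 ± 0.29 for dld-1. No adjusted p was below 0.999, and 0 of 7 genes were called against 0% of all genes. None of the 7 had an unadjusted p under 0.05, and DESeq2 called 3 genes in the whole table, none of them among the 7. With the replicate block 0 of 7 were called, against 0.00602% of all genes. Without libraries 7 and 8 the log2 changes ranged from -0.052 for bcat-1 to 0.27 for dld-1, and again 0 of 7 passed, against 0.00605% of all genes. The groups overlapped for all 7 genes, except bckd-1A when scaled to library totals, and 0.650% of all genes were higher and 0.644% lower without overlap. Summed germline and oocyte markers were 1723 to 4307 CPM on vector and 1752 to 4444 CPM on daf-7 RNAi, with libraries 7 and 8 lowest. Summed intestine markers, mostly vit-2 and vit-6, were highest in the same libraries, at 62381 CPM in library 7 and 58670 CPM in library 8. The part of these markers in the values of libraries 7 and 8 was not tested.

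The third comparison sets daf-16(mu86) against TU3311, both on vector. It uses the same vector libraries as the first and second comparisons, so its values are not independent of theirs. The mutated gene, daf-16, stood at 69.6 to 77.9 CPM of the library total in daf-16(mu86) and 201 to 215 CPM in TU3311, on vector. The strains differ in the daf-16 mutation and in the transgene. Their libraries also form separate runs of numbers, and their titles carry different prefixes, whose meaning is not given. These differences cannot be told apart. bcat-1 was lower in daf-16(mu86), at 139.9 ± 10.2 CPM against 189.9 ± 45.7 CPM (SD, n = 3). The other 6 genes were higher, among them dld-1 at 278 ± 21.6 against 180.0 ± 55.2 CPM and dbt-1 at 146 ± 7.76 against 93.3 ± 21.6 CPM. The groups did not overlap for any of the 7, against 25.8% of all genes higher and 30.7% lower without overlap. This too depended on scaling, with 6 of the 7 not overlapping under RLE factors, 5 with library totals and 3 with upper-quartile factors.

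In the edgeR fit 0 of 7 passed, against 6.64% of all genes. The log2 differences were -0.44 ± 0.23 for bcat-1 (adjusted p = 0.135), 0.65 ± 0.24 for dbt-1 (adjusted p = 0.0812) and 0.60 ± 0.23 for ivd-1 (adjusted p = 0.0840). They were 0.63 ± 0.29 for dld-1 and 0.58 ± 0.28 for mccc-1, and smaller for bckd-1A (0.38 ± 0.20) and bckd-1B (0.32 ± 0.18). Without libraries 7 and 8 the difference of bcat-1 was -0.22 ± 0.13 (adjusted p = 0.187). The other genes then ranged from 0.30 for bckd-1B to 0.47 for dbt-1, and bckd-1B, dbt-1 and ivd-1 passed, against 31.4% of all genes, and DESeq2 called the 6 genes other than bcat-1, against 28.5% of all genes. Leaving out library 8 alone, which is not in this comparison, gave 4 calls, dbt-1, dld-1, ivd-1 and mccc-1, against 36.4% of all genes. The E1 genes depended on scaling: with upper-quartile factors their differences were 0.080 for bckd-1A and 0.010 for bckd-1B. The sums of several marker lists separated the strains on vector. Germline and oocyte markers summed to 5781 to 6998 CPM in daf-16(mu86) and 1723 to 4307 CPM in TU3311. Embryo markers summed to 268 to 307 CPM and 108 to 266 CPM. The embryo markers did not move together. The log2 difference was positive for pal-1 (0.74) and end-3 (0.32), and negative for pes-10 (-0.53), elt-7 (-0.26) and skr-7 (-0.17). The sums of muscle markers (520 to 622 against 967 to 1701 CPM) and neuron markers (322 to 343 against 347 to 431 CPM) were lower in daf-16(mu86). So were those of epidermis markers (26.0 to 43.3 against 47.1 to 64.1 CPM) and sperm markers (0.615 to 2.75 against 3.80 to 21.7 CPM). The intestine sums, mostly vit-2 and vit-6, overlapped. Among the intestine markers only asp-1 had a positive log2 difference (0.26). The log2 differences of ges-1 (-1.65), vit-2 (-0.85), vit-6 (-0.60), elt-2 (-0.55), mtl-2 (-0.33) and cpr-6 (-0.20) were negative. The ges-1 groups did not overlap (14.5 to 19.9 against 32.9 to 85.6 CPM). The part of these markers in the result was not tested.

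Ratios within a library followed the same split. The ratio of bcat-1 to bckd-1A was 3.02, 1.70 and 1.82 in TU3311 on vector, above all 3 daf-16(mu86) vector libraries, and the log2 difference was -0.80 ± 0.27 (exact permutation p = 0.1, adjusted p = 0.3). Without library 7 it was -0.54. The ratio of dbt-1 to bckd-1A was 1.28, 1.26 and 1.26 in daf-16(mu86) and 0.853, 1.04 and 1.24 in TU3311, again without overlap (log2 difference 0.29 ± 0.16, exact permutation p = 0.1, adjusted p = 0.3). Without library 7 this difference was 0.15 and without library 11 it was 0.42. On daf-7 RNAi the ratio of bcat-1 to bckd-1A was 2.54, 1.60 and 1.36, which overlapped the TU3311 vector libraries (log2 difference -0.25 ± 0.38, exact permutation p = 0.5).

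The fourth comparison tests whether the response to bcat-1 RNAi in daf-16(mu86) differed from the response to daf-7 RNAi in TU3311. The difference in log2 change was 0.62 ± 0.32 for bcat-1 (edgeR adjusted p = 0.453). It was negative for the other 6 genes, from -0.33 ± 0.25 for bckd-1B to -0.74 ± 0.41 for dld-1. None of the 7 passed, against 0.108% of all genes. With the replicate block 5 passed, against 26.2% of all genes: bcat-1 (adjusted p = 0.0271) with a higher value, and bckd-1A (adjusted p = 0.0216), dbt-1 (adjusted p = 0.0324), dld-1 (adjusted p = 0.0278) and ivd-1 (adjusted p = 0.0473) with lower ones. Without libraries 7 and 8 and with no block, bckd-1A (-0.56, adjusted p = 0.0451) and dld-1 (-0.79, adjusted p = 0.0471) passed, bcat-1 (0.58, adjusted p = 0.0541) missed, and 13.2% of all genes were called. Strain and RNAi clone both differ between these responses and cannot be told apart.

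The likeness of patterns over the 12 libraries was measured as the root mean square difference of log2 CPM, centred on each gene's mean. Among the 7 genes, dbt-1 and ivd-1 were closest at 0.0792, followed by dld-1 and mccc-1 at 0.106, ivd-1 and mccc-1 at 0.129, and bckd-1A and bckd-1B at 0.135. Many other genes were closer still. Of 16618 genes tested, 180 were closer to dbt-1 than ivd-1 was, and 215 were closer to bckd-1B than bckd-1A was. For mccc-1, 167 genes were closer than dld-1 and 399 were closer than ivd-1. bcat-1 was at least 0.384 from each of the others. The 3 genes of the whole table closest to bcat-1 were K09E9.1 (0.0975), nhr-128 (0.111) and icap-1 (0.113), where the median over all genes was 0.531. Those closest to bckd-1A were eat-6 (0.0528), cpt-2 (0.0734) and T09B9.4 (0.0735). Those closest to bckd-1B were gly-5 (0.0545), Y54F10AL.1 (0.0589) and ppm-2 (0.0603), and those closest to dbt-1 were ragc-1 (0.0308), slc-30A9 (0.0394) and gss-1 (0.0396). The genes share the same 12 libraries and their depth, and no test was made of these distances.

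Other genes of the surrounding pathways were read from 4 lists with 60 genes tested. In the bcat-1 RNAi comparison 2 of the 60 rose and none fell in edgeR, where 694 of all genes rose and 24 fell. The median log2 change of the 60 genes was -0.15. With the replicate block 12 rose and 20 fell, against the 25.7% and 18.5% of all genes given above.

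The median log2 change of 24 genes for the steps after the ketoacid dehydrogenase was -0.25. Of the 24, 1 rose, against 4.32% of all genes called in either direction. This was acdh-2, an acyl-CoA dehydrogenase gene, at 0.42, 0.34 and 0.37 CPM on vector and 0.86, 1.67 and 1.53 CPM on RNAi (log2 change 1.84 ± 0.41, adjusted p = 0.0261), a low level. The acdh-2 call held in 15 of 22 other settings. It was lost without library 1, 3, 5, 4 or 6 (adjusted p of 0.0797 to 0.155), with RLE factors (0.0540) and with the strict filter (0.0530). hacd-1, which encodes a hydroxyacyl-CoA dehydrogenase, was at 49.9, 109 and 26.5 CPM on vector and 247, 262 and 130.2 CPM on RNAi. Its log2 change of 1.78 ± 0.50 missed (adjusted p = 0.0579), and passed with the block (adjusted p = 3.47e-04). ech-5, an enoyl-CoA hydratase gene (-0.70, adjusted p = 0.159), and acdh-7 (-0.47, adjusted p = 0.227) missed, and passed with the block (adjusted p = 0.00745 and 0.0207). With the block 3 of the 24 rose and 8 fell, against 25.7% and 18.5% of all genes.

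Of 13 genes of the other complexes that use DLD-1, none passed, and the median was -0.18. The smallest p belonged to gcsh-1, for the H protein of glycine cleavage (0.49, adjusted p = 0.308). ogdh-1, a subunit of 2-oxoglutarate dehydrogenase (-0.35, adjusted p = 0.346), pdhk-2, a pyruvate dehydrogenase kinase (-0.33, adjusted p = 0.361), and pdhb-1, E1 beta of pyruvate dehydrogenase (-0.44, adjusted p = 0.384), followed. With the block 1 of the 13 rose and 6 fell, against 25.7% and 18.5% of all genes. The named genes all passed there, gcsh-1 as the 1 that rose (adjusted p = 0.0304), and ogdh-1 (0.0310), pdhk-2 (0.0148) and pdhb-1 (0.00681) among those that fell.

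Of 10 genes for the synthesis of monomethyl branched-chain fatty acids and the lipids made from them, none passed, and the median was 0.28. elo-5, an elongase of these fatty acids, was at 78.9, 117 and 61.7 CPM on vector and 161, 163 and 128 CPM on RNAi, without overlap (log2 change 0.81 ± 0.25, adjusted p = 0.0822). elo-6, a second such elongase, was at 84.5, 126 and 57.9 CPM on vector and 200.4, 193 and 119.9 CPM on RNAi, and the lowest RNAi library lay within the vector range (0.93 ± 0.30, adjusted p = 0.0951). sptl-2, a serine palmitoyltransferase subunit for sphingolipids (0.70 ± 0.23, adjusted p = 0.0953), and fasn-1, fatty acid synthase (0.69 ± 0.28, adjusted p = 0.172), also missed. With the block 5 of the 10 rose and none fell, against 25.7% and 18.5% of all genes. Those that rose were elo-5 (adjusted p = 0.00125), elo-6 (adjusted p = 5.90e-04), sptl-2 (adjusted p = 0.00203), fasn-1 (adjusted p = 0.0221) and hpo-8.

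Of 13 genes for other aminotransferases and glutamate dehydrogenase, 1 rose, against 4.32% of all genes called in either direction, and the median was -0.15. tatn-1, the tyrosine aminotransferase that starts tyrosine breakdown, was at 19.3, 22.6 and 20.7 CPM on vector and 82.1, 55.2 and 112 CPM on RNAi. All 3 RNAi libraries were well above all 3 vector libraries, and the log2 change was 2.00 ± 0.35 (edgeR adjusted p = 0.00974). tatn-1 passed in 19 of 22 other settings and missed without library 1 (adjusted p = 0.0742), 3 (0.0525) or 5 (0.0921). gfat-1, which uses glutamine to make hexosamine, was at 717, 666 and 612 CPM on vector and 434, 368 and 352 CPM on RNAi (log2 change -0.79 ± 0.24, adjusted p = 0.0819), and passed with the block (adjusted p = 5.85e-04). got-1.2, an aspartate aminotransferase (0.58, adjusted p = 0.146), and nkat-1, a kynurenine aminotransferase gene (1.47, adjusted p = 0.128), missed, and passed with the block (adjusted p = 0.00840 and 0.0456). The level of nkat-1 was very low, at 0.052 to 0.238 CPM on vector and 0.278 to 0.460 CPM on RNAi. It was tested in 19 of the 22 other settings and passed in 2. With the block 3 of the 13 rose and 6 fell, against 25.7% and 18.5% of all genes.

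**Figure D4:**
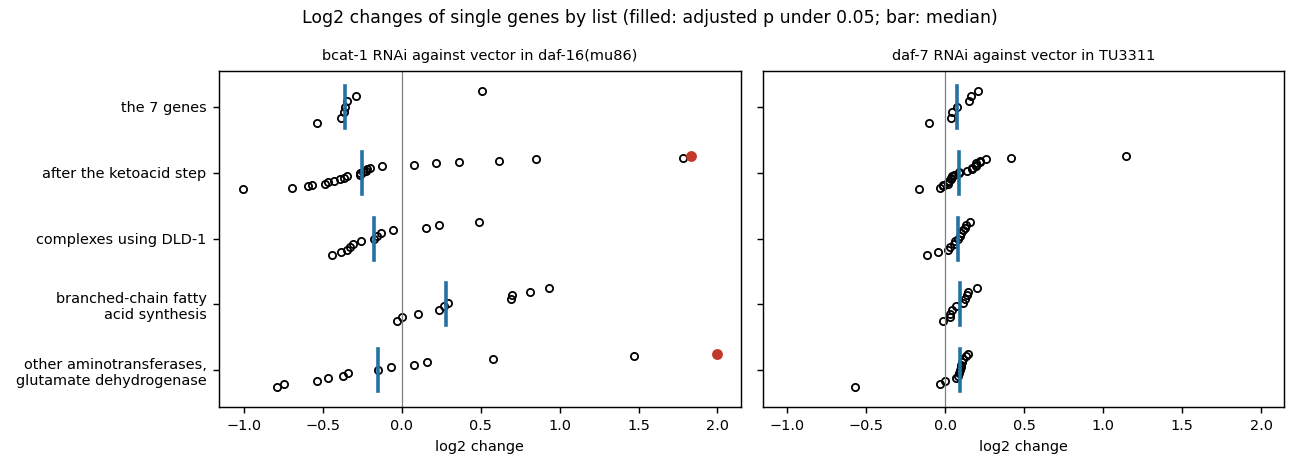
Log2 changes in the bcat-1 RNAi (left) and daf-7 RNAi (right) comparisons, with each point 1 gene, for the 7 genes and the 4 pathway lists; filled points passed an adjusted p of 0.05 in edgeR and blue bars are medians. In the left panel acdh-2 (1.84) and tatn-1 (2.00) are filled, and the median of the fatty acid list (0.28) is the only one above 0; in the right panel no point is filled.

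In the daf-7 RNAi comparison 0 of the 60 genes passed in edgeR, with or without the block, and 0 had an unadjusted p under 0.05. In the strain comparison 1 of 60 passed in edgeR, against 6.64% of all genes. This was acdh-2, which was lower in daf-16(mu86) (-1.85 ± 0.41, adjusted p = 0.0276). The acdh-2 call was lost without library 1, 3, 5 or 7 and with RLE factors. tatn-1 (-1.07 ± 0.35, adjusted p = 0.0674), elo-6 (-0.91 ± 0.30, adjusted p = 0.0701) and elo-5 (-0.70 ± 0.25, adjusted p = 0.0780) had negative values there and pdhk-2 (0.63 ± 0.21, adjusted p = 0.0682) and gfat-2 (1.09 ± 0.38, adjusted p = 0.0753) positive ones, and none of these passed. In the difference between the RNAi responses 0 of 60 passed, against 0.108% of all genes, and 7 had an unadjusted edgeR p under 0.05. Such a p was common: acdh-1, at an unadjusted edgeR p of 0.0461, ranked only 1949 of 16618 genes. With the block 7 of the 60 were higher and 14 lower, where 26.2% of all genes were called. Among the 60, tatn-1 had the smallest p without the block (2.03 ± 0.49, adjusted p = 0.113), and passed with the block (adjusted p = 0.00376).

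**Figure D5:**
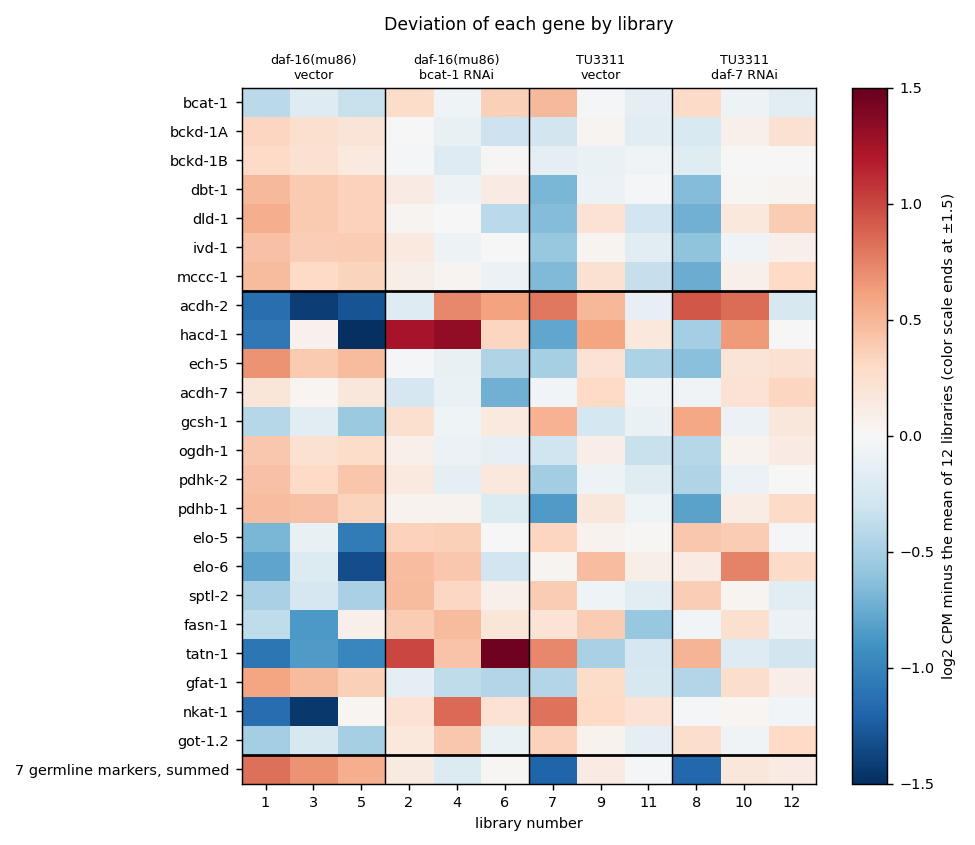
Deviation of log2 CPM from each gene's mean over 12 libraries for the 7 genes, the 16 pathway genes with the smallest p in the bcat-1 RNAi comparison (4 from each list) and the summed level of 7 germline and oocyte markers; columns are libraries by group and the color scale ends at ±1.5. bcat-1 and tatn-1 are low in libraries 1, 3 and 5 and high in libraries 2, 6, 7 and 8, while dbt-1, dld-1, ivd-1, mccc-1 and the germline markers are high in libraries 1, 3 and 5 and lowest in libraries 7 and 8.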

How the data were processed

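Total RNA of whole worms was made into libraries with the TruSeq RNA kit, per the labels' protocols. Each deposited count is a whole number of reads for 1 gene in 1 library, made by the authors. The submitters' processing notes, which give no order or role, list featureCounts 1.4.6-p4, STAR 2.4.1d and bcl2fastq 1.8.4, with the build WBcel235. The annotation, strand setting and treatment of reads with several matches are not given in the sources used here. The deposited RPKM values were not used here. Gene names, exons and overlaps came from the Ensembl release 115 annotation of WBcel235.

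Counts of all 12 libraries were fitted in edgeR 4.0.16 (R 4.3.3; limma 3.58.1) with 4 group means, TMM factors, filterByExpr and glmQLFTest (8 residual degrees of freedom), and p-values were adjusted by Benjamini-Hochberg over 16618 genes, with a threshold of 0.05. Standard errors were computed back from the F statistic. Alternatives included DESeq2 1.42.0, other scaling factors and filters, fewer libraries and a replicate block. The labels state no pairing; it comes from the values. Deviations from group means correlated between neighbouring library numbers at 0.398, 0.284 and 0.158 in daf-16(mu86) and at 0.892, 0.777 and 0.504 in TU3311, all over 0.1, so blocked values are given where they change a call. No correlation between libraries that are not neighbours is set beside these, so the cut of 0.1 has no reference. The choice of the block rests on the same counts that the blocked fit tests, so its calls are no independent support. The fit was tested on simulated counts of the bcat-1 RNAi comparison, where most true log2 changes of 1 or -1 were not called. A gene that missed the threshold is therefore not shown to be unchanged.

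The members and lists were chosen with earlier results of these data known. Genes named beyond the 7 are, per list and comparison, up to 4 with the smallest p, and the 3 genes most like bcat-1, bckd-1A, bckd-1B and dbt-1; where fewer are named, the others did not pass. Of 112 names listed, 109 were matched; mccc-2, got-1.1 and got-1.3 were not analysed here. Summed epidermis markers (5) ranged from 26.0 to 167 CPM and embryo markers (5) from 107 to 307 CPM over the 12 libraries.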

Additional observations from a re-analysis of the deposited data

Results flagged for a closer look

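For 3 genes, every neighbouring pair of libraries in daf-16(mu86) moved one way between vector and bcat-1 RNAi, and every pair in TU3311 moved the other way between vector and daf-7 RNAi. For bcat-1 the pair differences in log2 CPM were 0.67, 0.13 and 0.70 in daf-16(mu86) and -0.20, -0.048 and -0.031 in TU3311, and the difference between the responses was 0.62. For bckd-1A they were -0.32, -0.35 and -0.50 against 0.051, 0.035 and 0.39, a difference of -0.55. For dbt-1 they were -0.36, -0.47 and -0.21 against 0.041, 0.10 and 0.069, a difference of -0.42. The difference itself missed the threshold for all 3 genes in the edgeR fit of 12 libraries (adjusted p = 0.453, 0.441 and 0.615). With the replicate block it passed for all 3 (adjusted p = 0.0271, 0.0216 and 0.0324), where 26.2% of all genes were called, but that fit uses the pair differences by which the 3 genes were picked and is no independent test of them. The same pattern of signs was found in 10.4% of all genes tested. The TU3311 pair differences of bcat-1 and dbt-1 were small beside the SE of 0.23 and 0.24 of a log2 change in that fit.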

How the results depend on the processing

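The signs of the 7 genes in the bcat-1 RNAi comparison held in all 22 other settings, and the calls and sizes did not. The log2 change ranged from 0.30 to 0.71 for bcat-1, -0.59 to -0.18 for bckd-1A and -0.50 to -0.090 for bckd-1B. It ranged from -0.56 to -0.15 for dbt-1, -0.75 to -0.33 for dld-1, -0.57 to -0.17 for ivd-1 and -0.57 to -0.16 for mccc-1. In that comparison 718 genes were called, and 330 with RLE factors, 1150 with library totals, 7356 with the replicate block, 6116 with only its 6 libraries, 5896 without libraries 7 and 8, and 6407 with the block and only the 6 libraries, a setting chosen after seeing the data; leaving out 1 library gave 45 (without library 1) to 1375 (without library 8). Of the 7 genes, 0 were called, and 6 under each of the last 4 settings before leaving out 1 library, where bcat-1 changed by 0.50, 0.55, 0.53 and 0.54. For daf-7 RNAi 0 genes were called, and 1 with RLE factors, no filter, the block or without libraries 7 and 8, 3 with DESeq2, and 0 to 1 on leaving out 1 library. For the strains 1103 were called, and 256 with RLE factors, 1897 with upper-quartile factors, 2883 with totals, 405 with the strict filter, 4736 with DESeq2, 526 with only 6 libraries, 5194 without libraries 7 and 8, and 30 (without library 5) to 6110 (without library 8); of the 7 genes, 6 with DESeq2, 3 without libraries 7 and 8, and 0 to 4. For the difference between responses 18 were called, and 2 with upper-quartile factors, 40 with no filter, 9 with the strict filter, 131 with DESeq2, 4349 with the block, 2187 without libraries 7 and 8, and 0 (without library 1, 3 or 5) to 88 (without library 7); of the 7 genes, 5 with the block and 2 without libraries 7 and 8. The cause was not tested. Relative to TMM, the median of all genes shifted by -0.20, 0.15 and 0.20 in the bcat-1 RNAi comparison with RLE, upper-quartile and total scaling, and by 0.21, -0.33 and -0.28 between the strains.

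Leaving out 1 library turned the sign of small changes with daf-7 RNAi: bcat-1 ranged from -0.25 to 0.11, dbt-1 from -0.11 to 0.27, dld-1 from -0.021 to 0.48, ivd-1 from -0.11 to 0.22 and mccc-1 from -0.069 to 0.44. It also turned log2 differences of ratios to bckd-1A: with bcat-1 RNAi bckd-1B ranged from -0.0288 to 0.17 and dbt-1 from -0.0778 to 0.13, and with daf-7 RNAi dbt-1 ranged from -0.22 to 0.045 and bcat-1 from -0.51 to 0.00965. Between the strains it moved bcat-1 from -0.51 to -0.22, the latter without library 7. The lowest count of the 7 genes in a library was 3043.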
